A study of Mus musculus with 30 samples.

Results

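The 10 genes described here are genes of the negative feedback on the ERK pathway, together with the ETS transcription factor gene Etv5. The feedback inhibitors are the MAP kinase phosphatases Dusp1, Dusp4, Dusp5 and Dusp6, the Sprouty genes Spry1, Spry2 and Spry4, and the Spred genes Spred1 and Spred2. All 10 are called feedback genes below, although Etv5 is not an inhibitor. They were listed by name and found by matching the Ensembl gene identifiers of the deposited table to mouse symbols, which gave all 10 of 10 among 78334 gene identifiers. All 10 passed the filter on low counts in both sequencing runs, and their lowest expected count in any library was 21. Their levels set no threshold for membership, but the list was drawn up with earlier results of these data known.

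Growth factor receptors such as the PDGF receptors activate RAS, which activates the kinases RAF, MEK and ERK in turn, and ERK then changes transcription. Some of the induced genes turn the signal down again. DUSP proteins remove phosphate from MAP kinases, while Sprouty and Spred proteins act further up, between the receptor and RAF. Etv5 is one of the PEA3 group of ETS factors, whose transcripts commonly rise with ERK activity. In vascular smooth muscle, PDGF-BB is a classical mitogen and angiotensin II a peptide hormone of the renin system that acts through a G protein coupled receptor.

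The study sequenced RNA from 30 libraries in 9 groups, all labelled aortic smooth muscle cells in culture, to compare the loss and gain of the long noncoding RNA CASC15 with and without treatment. The labels give mouse as the organism, while their growth protocol speaks of mouse and rat cells, and the species of the reads was not tested. All cells were kept 48 h without serum and were transfected at least 24 h before the endpoint, so that controls were transfected too. Run 3 held 5 groups of 4 libraries: cells with a control GapmeR (an antisense oligonucleotide that directs RNase H to an RNA) that were untreated, given angiotensin II at 10 ng/ml for 24 h or given PDGF-BB at 10 to 30 ng/ml for 24 h, and cells with a GapmeR against long CASC15 that were untreated or given angiotensin II. Run 2 held untreated cells only: 2 libraries had the control GapmeR and 2 are labelled total CASC15 knockdown, while 3 had a control plasmid and 3 a plasmid that carries total CASC15. PDGF-BB was given to control cells alone. The labels name a batch, P16 to P19, for each library, with at most 1 library per batch in a group, and they do not say whether a batch is an animal, a passage or a day. They do not say that libraries of a group came from separate cultures, so p-values measure the spread between these libraries, which may be technical in part. In bulk RNA, fewer cells that express a gene and less RNA per cell cannot be told apart.

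Expected counts summed to between 18007199 and 21881959 per library in run 2 and between 15771490 and 30362047 in run 3. The gene read as mouse CASC15, 2610307P16Rik, was lower in long knockdown (log2 fold change -0.95 untreated, adjusted p = 0.000832, and -0.79 under angiotensin II, adjusted p = 0.00372, edgeR) and higher in overexpression (6.79, adjusted p = 1.88e-05). It was also lower with PDGF-BB in control cells (-0.62, adjusted p = 0.0101, and -0.55, adjusted p = 0.0215 against angiotensin II). In the libraries labelled total CASC15 knockdown it was not lower (0.36, adjusted p = 0.739), so that label is not borne out at this gene and every direction drawn from these libraries is one of label only. Levels are given as CPM, read counts per unit of library size, with TMM scaling for values per library and group means of single genes. The marker ranges that follow here and all summed levels of lists have no TMM scaling, so they are not on quite the same scale. Of the smooth muscle markers, Acta2 (89.1 to 432 CPM) and Smtn (42.3 to 98.8) were present in every library, whereas Tagln was at 0.236 to 3.52, Myh11 at 0 to 6.81 and Cnn1 at 0 to 0.228, with Cnn1 at 0 in 17 libraries. Lmod1, Des and Myocd stayed under 4 CPM. Of the 8 fibroblast markers, Col1a1 (1320 to 3460 CPM) and Dcn (520 to 2260) were abundant, Pi16 (2.61 to 74) and Pdgfra (1.69 to 67.9) varied, Lum (0 to 5.38) and Fbln1 (0.301 to 6.17) were low, and Dpt (0 to 0.984) and Serpinf1 (0 to 1.01) were at 0 in 4 and 3 libraries. Of the 6 epithelial markers, the cadherin gene Cdh1 was at 36 to 185 CPM and Krt8 at 0.0965 to 5.1, while Epcam, Krt18, Krt14 and Krt5 stayed under 1, with Epcam at 0 in 20 libraries. Of the 8 endothelial markers, Pecam1 (0.188 to 3.34 CPM) and Egfl7 (0.214 to 3.92) were found in every library, Vwf reached 6.26, Kdr, Tek, Emcn and Cdh5 stayed under 1 and Tie1 was at 0 in all 30 libraries. Of the 8 macrophage and leukocyte markers, Cd14 (8.17 to 20.5 CPM) and Cd68 (0.111 to 16.2) were found in every library, Csf1r reached 4.62 and Lyz2 1.41, Ptprc, Adgre1 and Itgam stayed under 1, and Tyrobp was at 0 in all 30.

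RefSeq promoter windows (build GRCm38.p6) were at hand for 8 of the 10 genes, and the 250 bases before the annotated start are shown for 3 of the 4 phosphatase genes, because these had opposite responses to PDGF-BB. The Dusp1 window lies on the minus strand at chr17:26508473-26508722, Dusp5 on the plus strand at chr19:53528895-53529144 and Dusp6 on the plus strand at chr10:99262981-99263230. Capitals mark every match, on either strand, to the motifs searched: AP-1 (TGANTCA), the cyclic AMP response element core (TGACGT), ETS (CCGGAA), PEA3 (AGGAAG), Sp1 (GGGCGG) and the CArG box, the site named for serum response factor.
Dusp1: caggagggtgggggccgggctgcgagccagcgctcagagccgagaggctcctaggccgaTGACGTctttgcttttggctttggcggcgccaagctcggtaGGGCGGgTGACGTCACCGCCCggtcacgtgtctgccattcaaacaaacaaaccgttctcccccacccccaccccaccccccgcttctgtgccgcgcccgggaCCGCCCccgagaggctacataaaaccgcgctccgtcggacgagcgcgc
Dusp5: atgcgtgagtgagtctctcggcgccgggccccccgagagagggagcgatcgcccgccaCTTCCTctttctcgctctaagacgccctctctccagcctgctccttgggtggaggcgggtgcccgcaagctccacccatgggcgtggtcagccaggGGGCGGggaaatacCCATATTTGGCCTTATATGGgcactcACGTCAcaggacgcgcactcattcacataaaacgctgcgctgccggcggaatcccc
Dusp6: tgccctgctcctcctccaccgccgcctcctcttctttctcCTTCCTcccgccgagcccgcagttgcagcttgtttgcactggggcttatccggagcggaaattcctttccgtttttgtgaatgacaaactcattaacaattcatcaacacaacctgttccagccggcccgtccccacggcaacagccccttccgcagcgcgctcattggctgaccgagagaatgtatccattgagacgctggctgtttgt
In the Dusp1 window the cyclic AMP response element core matched 3 times, starting 191, 143 and 141 bases before the start, the last 2 being overlapping matches on opposite strands, and Sp1 matched 3 times. The Dusp5 window held 2 CArG boxes side by side, starting 82 and 72 bases before the start, with 1 cyclic AMP response element core 56 bases before it and 1 match each to PEA3 and Sp1. The Dusp6 window held 1 PEA3 match, 210 bases before the start, and no other. Over the 9 windows of the 8 genes, with 2 windows for Etv5, a CArG box was found in 1, the cyclic AMP response element core in 3, PEA3 in 3, Sp1 in 6, and AP-1 and ETS in 0. Among all 32851 windows of this length the shares were 1.47% for the CArG box, 6.47% for the cyclic AMP response element core, 29.5% for PEA3, 32.7% for Sp1, 6.75% for AP-1 and 12% for ETS. These are matches of letters only.

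Levels of different genes were compared roughly, per kilobase of the merged annotated exons of a gene, which can exceed the transcripts expressed. Spred1 was the highest of the 10 in untreated control cells of run 3, at 28.1 ± 2.38 CPM per kb (SD, n = 4). Dusp4 followed at 22.6 ± 6.75 and Spry2 at 20.5 ± 1.21, and the ranges of these 3 genes overlapped for each pair of neighbours. Spred2 was next at 14.6 ± 0.799. Dusp1 (9.36 ± 1.39), Spry1 (8.30 ± 0.810) and Dusp6 (7.95 ± 2.23) could not be ordered beyond their spread. Etv5 stood at 2.59 ± 0.426, Dusp5 at 1.31 ± 0.330 and Spry4 at 0.447 ± 0.172 CPM per kb, each with a range apart from its neighbours. The 3 genes with the lowest levels were thus Etv5, Dusp5 and Spry4.

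After 24 h of PDGF-BB the feedback genes moved in both directions. Spry4, Etv5, Dusp5, Dusp6, Spry2 and Spred2 rose and Dusp1 fell, so that 7 of 10 genes were called (6 higher, 1 lower) at an adjusted p under 0.05 in edgeR's quasi-likelihood test, against 43.6% of all 15103 genes tested (23.6% higher and 20% lower). The rises ran from 1.19-fold for Spred2 to 4.54-fold for Spry4. The median log2 fold change was 0.63 over the 10 genes and -0.02 over all genes. Adjusted p-values below are from this test with Benjamini-Hochberg adjustment over all genes of the run, and values per library are TMM-scaled CPM in the order P16, P17, P18 and P19.

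**Figure D1:**
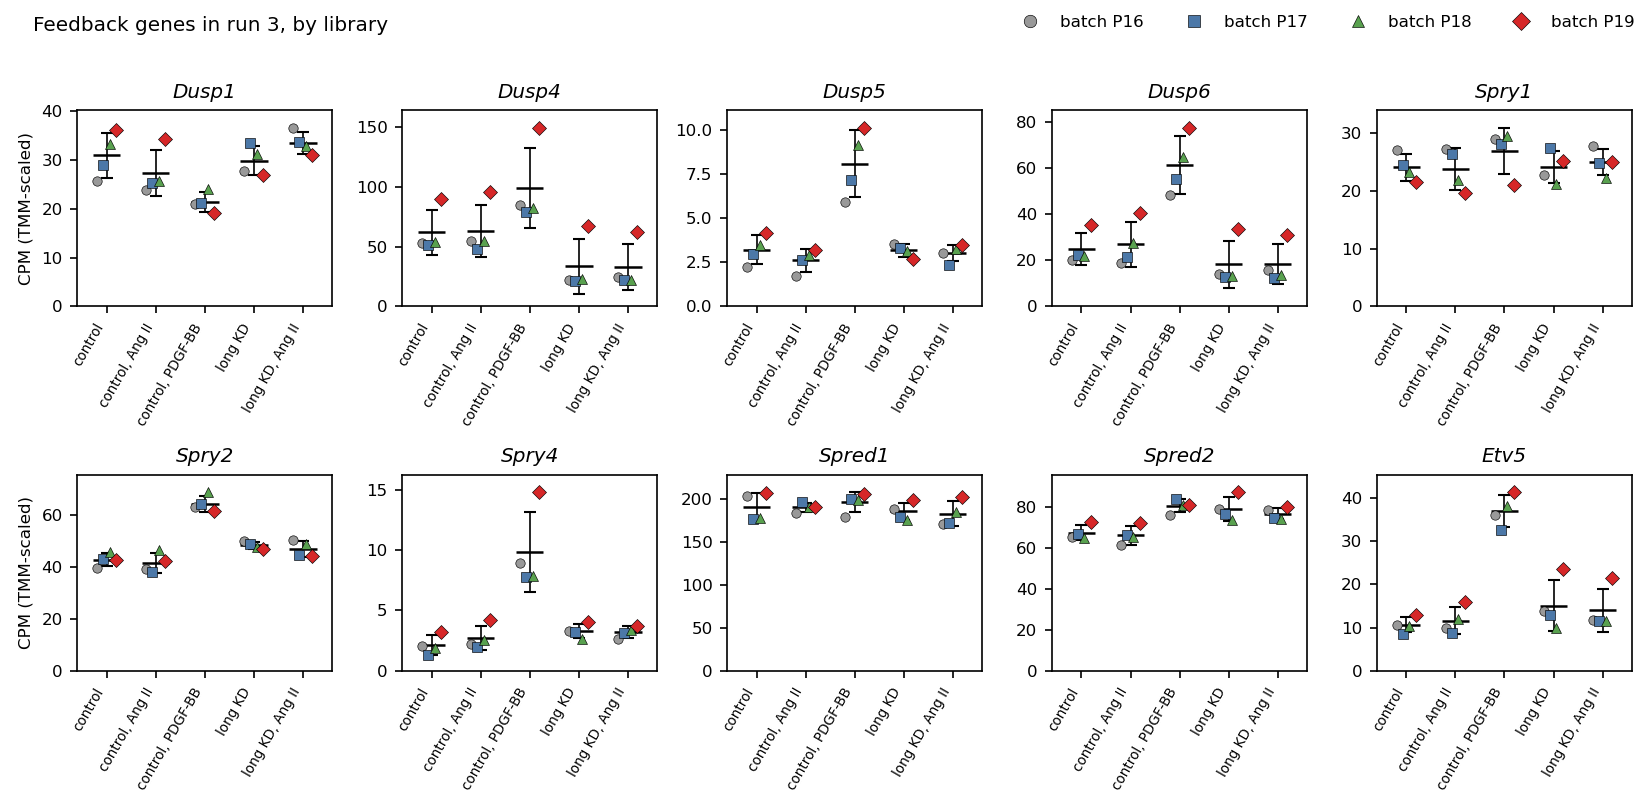
TMM-scaled CPM (y axis, from 0) of each of the 10 genes in the 20 libraries of run 3, by group (x axis), with 1 point per library coloured by batch, the mean as a bar and the SD as whiskers (n = 4). The PDGF-BB libraries lie above all untreated controls for Dusp5, Dusp6, Spry2, Spry4, Spred2 and Etv5 and below them for Dusp1, and P19 is the highest library for Dusp4 in all 5 groups.

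Dusp5, a nuclear phosphatase for ERK itself, had 2.27, 2.98, 3.49 and 4.2 CPM in untreated control cells and 5.95, 7.19, 9.17 and 10.1 with PDGF-BB. Every treated library lay above every untreated one, and the log2 fold change was 1.32, with an SE of 0.214 and an adjusted p of 5.07e-05. Dusp6, the ERK phosphatase of the cytoplasm, had 20.2, 22.2, 21.9 and 35.3 CPM untreated and 48.4, 55.1, 64.6 and 77.2 with PDGF-BB. The groups did not overlap although P19 was high in both, and the log2 fold change was 1.3, with an SE of 0.348 and an adjusted p of 0.0061.

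Dusp1, the immediate early phosphatase that acts on p38 and JNK as well as ERK, went the other way. It had 25.7, 28.9, 33.3 and 36.1 CPM untreated and 21.0, 21.1, 24.1 and 19.2 with PDGF-BB. All treated libraries lay below all untreated ones, and the log2 fold change was -0.54, with an SE of 0.118 and an adjusted p of 0.000981. Dusp4, a nuclear phosphatase related to Dusp1, had 52.8, 51.5, 53.6 and 89.6 CPM untreated and 85.1, 78.8, 82.5 and 149 with PDGF-BB. The P19 control lay above 3 of the 4 treated libraries, so the groups overlapped, and the log2 fold change of 0.67 was not called (SE 0.415, adjusted p = 0.205). Inside each batch the Dusp4 ratio was close to the same size, with log2 ratios of 0.69, 0.61, 0.62 and 0.73, and the fit with the batch as a block called it (adjusted p = 0.000501), which made 8 of 10 against 54.5% of all genes in that fit (7 genes higher against 28.3%, and 1 lower against 26.2%). Without the P19 libraries it was called with no block too (0.64, adjusted p = 1.02e-08).

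Among the Sprouty genes, whose proteins restrain RAS activation at the receptor, Spry4 had 2.06, 1.299, 1.895 and 3.25 CPM untreated and 8.92, 7.75, 7.85 and 14.8 with PDGF-BB. The groups were far apart, and the log2 fold change of 2.18, the largest of the 10, had an SE of 0.275 and an adjusted p of 2.49e-06. Spry2 had 39.5, 43.2, 45.7 and 42.5 CPM untreated and 62.9, 64.0, 68.5 and 61.3 with PDGF-BB. Its change was smaller but its spread narrow, at 0.59 (adjusted p = 8.29e-07, SE 0.0679). Spry1 had 27.1, 24.5, 23.3 and 21.5 CPM untreated and 29.0, 28.2, 29.5 and 21.1 with PDGF-BB. These groups overlapped, and the log2 fold change of 0.16 was not called (95% interval -0.09 to 0.41, adjusted p = 0.305).

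Of the Spred genes, whose proteins bind the RAS inhibitor neurofibromin, Spred2 had 65.5, 66.9, 64.9 and 72.9 CPM untreated and 76.3, 83.9, 81.3 and 80.9 with PDGF-BB. All treated libraries were above all untreated ones, by a log2 fold change of 0.25, with an SE of 0.0626 and an adjusted p of 0.00257. Spred1, at 191 ± 16.2 CPM untreated and 196 ± 11.6 with PDGF-BB, was not called (0.04, 95% interval -0.11 to 0.18, adjusted p = 0.704). Etv5 had 10.7, 8.61, 10.4 and 12.9 CPM untreated and 36.1, 32.6, 38.0 and 41.2 with PDGF-BB. The lowest treated library was above the highest untreated one by a wide margin, and the log2 fold change was 1.79, with an SE of 0.249 and an adjusted p of 1.28e-05.

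The mitosis list, with 10 of 10 genes called higher, moved with PDGF-BB as well: the summed level of its genes was 123 to 278 CPM in untreated controls and 1890 to 1980 with PDGF-BB. Mki67, the proliferation marker, went from 27.4 ± 14.8 to 377 ± 17.1 TMM-scaled CPM. Acta2 fell (log2 fold change -0.94, adjusted p = 2.15e-05) and Smtn rose (1.03, adjusted p = 1.78e-08). Of the fibroblast markers 2 were higher and 3 lower among 6 tested (summed level 3350 to 3980 CPM untreated and 2810 to 4090 with PDGF-BB), and of the interferon genes 6 of 8 were lower (79.6 to 103 and 40.2 to 57.5 CPM). Of the epithelial markers 1 of 2 tested was higher (95.1 to 129 and 145 to 190 CPM). Of 3 endothelial markers tested, Pecam1 fell from 1.19 ± 0.526 to 0.372 ± 0.227 CPM (-1.65, adjusted p = 0.0397) and Egfl7 rose from 1.95 ± 0.476 to 3.32 ± 0.662 (0.77, adjusted p = 0.0384), and the summed level of the list was 3.03 to 5.17 and 3.42 to 4.61 CPM. Of 2 macrophage and leukocyte markers tested 0 were called (10.7 to 15 and 10.6 to 13 CPM). Tie1, Cdh5, Ptprc, Adgre1 and Tyrobp were at 0 in both groups. The part of these shifts in the values of the feedback genes was not tested.

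Angiotensin II left no call among the 10 genes, in control cells or in long knockdown cells. In control cells Dusp1 had 23.9, 25.3, 25.7 and 34.3 CPM with angiotensin II, Dusp6 18.7, 21.3, 27.3 and 40.3, and Spry4 2.22, 2.01, 2.57 and 4.19, each overlapping the untreated values above. edgeR called 0 of 10 genes at an adjusted p under 0.05 and 0 at an unadjusted p under 0.05, DESeq2 called 0, and over all genes edgeR called 0%, with 156 at an unadjusted p under 0.05. In long knockdown cells the counts for the 10 genes were also 0 adjusted, against 0% of all genes, and 0 unadjusted, against 1.15%. DESeq2 called 0 of the 10 there as well. The 95% intervals of the 10 log2 changes in control cells stayed between -0.86 and 0.93, the widest being those of Dusp4 (-0.86 to 0.91) and Dusp6 (-0.63 to 0.84), while that of Spry2 was -0.18 to 0.10. For each gene, changes inside its own interval were not excluded, and the intervals are not adjusted for the number of genes. The interaction of knockdown and angiotensin II was called for 0 of 10 genes against 0% of all genes, with 1 at an unadjusted p under 0.05, against 1.1% of all genes, which was Dusp1 (0.35, 95% interval 0.01 to 0.70, adjusted p = 1), and with 0 by DESeq2.

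The direct comparison of PDGF-BB with angiotensin II, which does not use the untreated controls, called 7 of 10 genes against 42.4% of all genes (6 higher against 23%, and 1 lower against 19.4%). Spry4 (log2 difference 1.84, adjusted p = 2.02e-05), Etv5 (1.67, adjusted p = 3.01e-05), Dusp5 (1.63, adjusted p = 6.98e-06), Dusp6 (1.19, adjusted p = 0.0109), Spry2 (0.63, adjusted p = 4.04e-07) and Spred2 (0.28, adjusted p = 0.00119) were higher with PDGF-BB. Dusp1 was lower with PDGF-BB (-0.35, adjusted p = 0.0213), but its groups overlapped and the call was lost without P19 (-0.18, adjusted p = 0.137), without replicate 4 of the angiotensin II group (-0.23, adjusted p = 0.111) or without replicate 4 of the PDGF-BB group (adjusted p = 0.0527). Dusp4 was called with the batch as a block (0.65, adjusted p = 0.000681) and not without (adjusted p = 0.227). With it 8 of 10 genes were called against 53.7%, 7 higher against 28% and 1 lower against 25.7%.

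**Figure D2:**
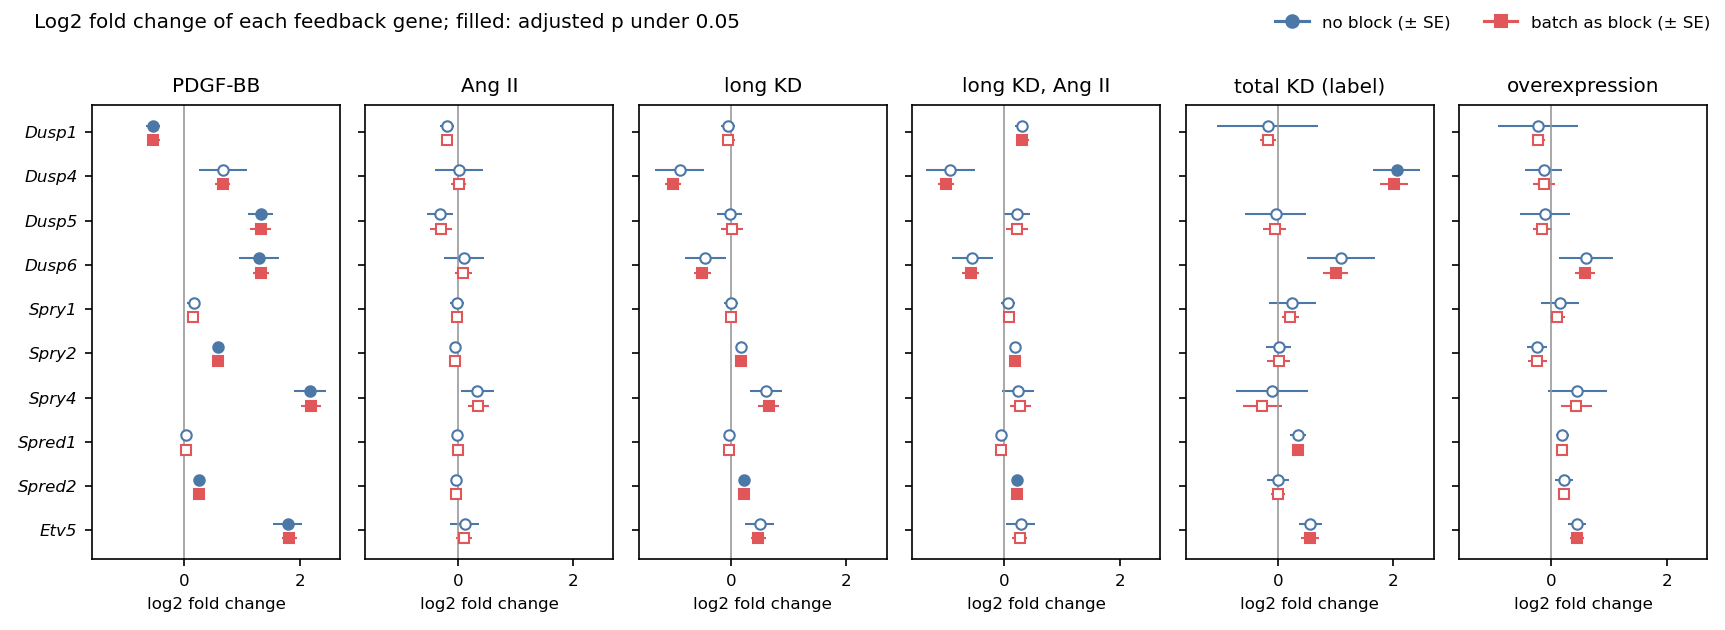
Log2 fold change (x axis, ± SE) of the 10 genes (y axis) in 6 comparisons, from the fit with no block (circles) and with batch as a block (squares), filled where the adjusted p was under 0.05. PDGF-BB gave 7 filled circles (43.6% of all genes called) and angiotensin II 0 (0%). Long knockdown gave 1 filled circle and 6 filled squares untreated (25% and 40.6% of all genes) and 1 and 5 under angiotensin II (26.7% and 41.3%).

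With knockdown of long CASC15, Dusp4 and Dusp6 were lower than control inside each of the 4 batches, least so in P19 for untreated cells, and passed the test with the batch as a block. Without a block, only Spred2 was called in untreated cells: 1 of 10 genes, against 25% of all genes, or 12.3% in that direction. With the batch as a block 6 of 10 genes were called, Dusp4 and Dusp6 lower and Spry4, Etv5, Spred2 and Spry2 higher, against 40.6% of all genes in that fit, 20.6% lower and 20% higher. Without P19 and with no block, 4 genes were called against 40% of all genes in that fit: Dusp4 and Dusp6 lower, against 21.3%, and Spry4 and Spred2 higher, against 18.7%. These comparisons share the untreated controls with the PDGF-BB comparison above, so the values for the same genes are given side by side and are not independent of each other.

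Dusp4 had 22.1, 21.5, 22.7 and 67.5 CPM in untreated long knockdown cells, against 52.8, 51.5, 53.6 and 89.6 in their controls. In P16, P17 and P18 the knockdown library was below 23 CPM and the control above 51, while the P19 knockdown library exceeded these 3 controls. The log2 ratios inside the batches were -1.26, -1.26, -1.24 and -0.41. The fit with no block gave -0.89 (adjusted p = 0.138, SE 0.424), the fit with the block -1.0 (adjusted p = 3.72e-05, SE 0.136), and the fit without P19 -1.26 (adjusted p = 3.83e-13). Without P19 of the knockdown group alone it was called as well (-1.49, adjusted p = 0.00943).

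Dusp6 had 13.8, 12.6, 13.4 and 33.6 CPM in untreated long knockdown cells, against 20.2, 22.2, 21.9 and 35.3 in controls. The 3 lower batches separated and P19 did not, with log2 ratios of -0.55, -0.81, -0.71 and -0.07. The fit with no block gave -0.44 (adjusted p = 0.386), with the block -0.50 (adjusted p = 0.0138) and without P19 -0.69 (adjusted p = 0.000153). Under PDGF-BB, in control cells, the same 2 genes had log2 changes of 0.67 (Dusp4) and 1.3 (Dusp6).

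Spred2 had 79.0, 76.5, 73.5 and 87.2 CPM in untreated long knockdown cells. All lay above all 4 controls, by a log2 fold change of 0.23, with an SE of 0.0626 and an adjusted p of 0.011, a call lost without replicate 3 of the control group (0.19, adjusted p = 0.0652) and with no filter on low counts (adjusted p = 0.0679). Spry2 also lay above its controls in all libraries, at 49.7, 48.9, 47.6 and 46.8 CPM, with 0.18 in both fits (adjusted p = 0.0634, and 0.0206 with the block). Spry4 had 3.32, 3.23, 2.61 and 4.03 CPM, of which P17 and P18 lay below the P19 control (0.61, adjusted p = 0.118, and 0.66, adjusted p = 0.00555 with the block). Etv5 had 13.8, 12.96, 10.0 and 23.5 CPM, with a log2 ratio of -0.05 in P18 and 0.37 to 0.87 in the other batches (0.50, adjusted p = 0.154, and 0.47, adjusted p = 0.00659 with the block).

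The remaining genes stayed uncalled in both fits. Dusp1 (-0.06, 95% interval -0.30 to 0.19), Dusp5 (-0.02, -0.48 to 0.43), Spry1 (0.00, -0.25 to 0.25) and Spred1 (-0.04, -0.19 to 0.10) had adjusted p-values of 0.765, 0.948, 0.999 and 0.678.

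Under angiotensin II the long knockdown again had Spred2 as its only call without a block, 1 of 10 genes against 26.7% of all genes, 13.4% in that direction (0.21, adjusted p = 0.0156). That call was lost without replicate 1, 2 or 3 of the angiotensin II control group (adjusted p = 0.0787, 0.0706 and 0.0504) and with no filter on low counts (adjusted p = 0.0595). Dusp4 had 25.0, 22.1, 22.3 and 61.9 CPM against 54.9, 47.6, 54.7 and 95.5 in controls. P16 to P18 of the knockdown were again below all controls and P19 was not, and the log2 change was -0.94 (adjusted p = 0.115), -1.02 with the block (adjusted p = 3.34e-05) and -1.18 without P19 (adjusted p = 1.42e-12).

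Dusp6 had 15.8, 12.5, 13.5 and 31.0 CPM against 18.7, 21.3, 27.3 and 40.3 under angiotensin II. The knockdown library was the lower in all 4 batches, with log2 ratios of -0.24, -0.77, -1.02 and -0.38, and the change was -0.56 (adjusted p = 0.263), -0.59 with the block (adjusted p = 0.00506) and -0.69 without P19 (adjusted p = 0.000158). Dusp1, at 36.6, 33.8, 32.8 and 31.0 CPM, was above 3 of the 4 angiotensin II controls in every library and above all 4 in P16 (0.30, adjusted p = 0.0657, and 0.31, adjusted p = 0.0357 with the block). Spry2 was 0.18 higher (adjusted p = 0.0633, and 0.0227 with the block). Thus 5 of 10 genes were called with the block against 41.3% of all genes (3 higher against 20.4%, and 2 lower against 20.9%). Without P19 and with no block 5 were called, against 39.9% (3 higher against 19%, and 2 lower against 20.9%).

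**Figure D3:**
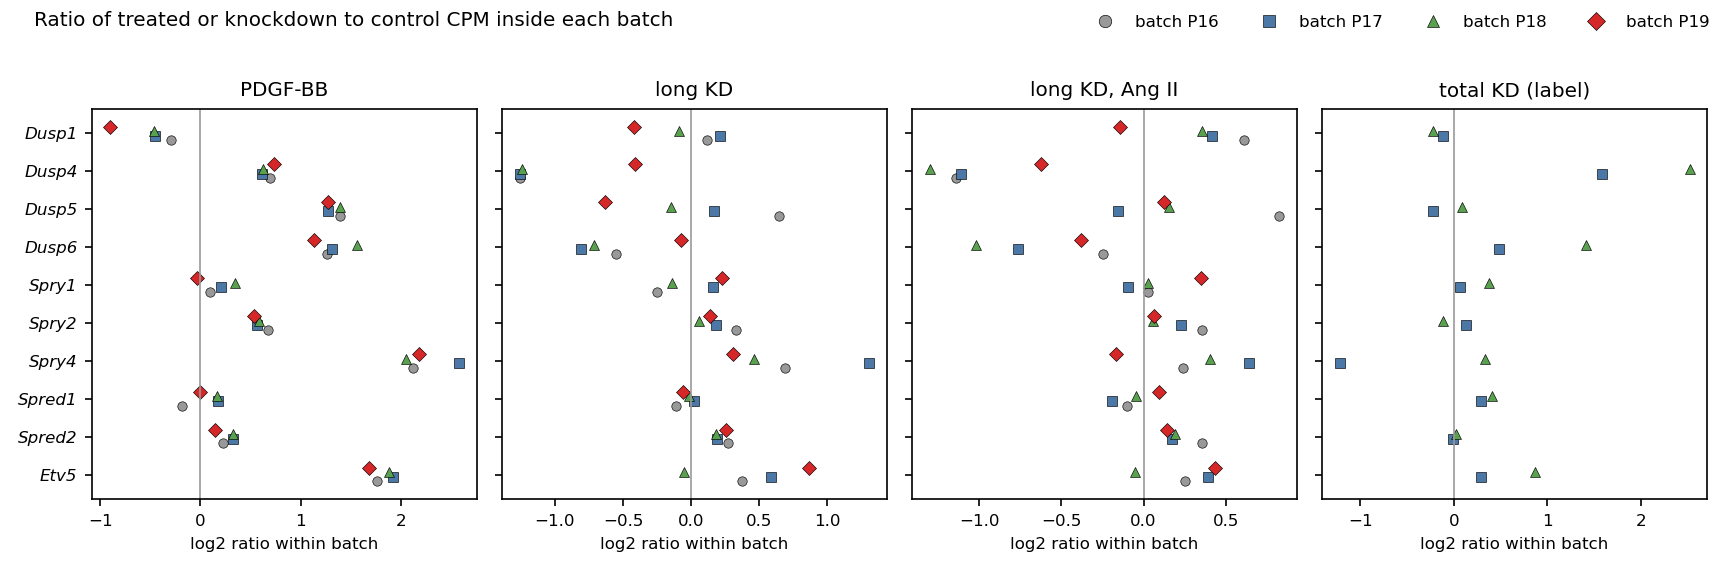
Log2 ratio of the treated or knockdown library to the control library of the same batch (x axis) for the 10 genes (y axis), with 1 point per batch, in 4 comparisons. For Dusp4 under long knockdown P16, P17 and P18 lie between -1.3 and -1.11 and P19 at -0.41 untreated and -0.62 under angiotensin II, while for PDGF-BB the 4 batches lie between 0.61 and 0.73.

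P19 was the highest library of its group for Dusp4, Dusp6, Etv5 and Spry4 in 5 of 5 groups of run 3, at 1.70 to 3.06 times the mean of the other batches for Dusp4, 1.38 to 2.53 for Dusp6, 1.16 to 1.91 for Etv5 and 1.23 to 1.86 for Spry4. Dusp5, Spred1 and Spred2 were highest in P19 in 4 of 5 groups, Dusp1 in 2, and Spry1 and Spry2 in 0. The summed mitosis list was also highest in P19 in 4 of the 5 groups, by far in long knockdown, at 177 CPM against 38.2 to 45.6 untreated and 161 against 35.2 to 48.8 under angiotensin II. With PDGF-BB it was 1890 CPM in P19 against 1950 to 1980, a small gap that TMM scaling, not applied to these sums, may alter. In long knockdown 1 of 10 mitosis genes was called lower untreated (8 with the block) and 2 under angiotensin II (10 with the block). In untreated long knockdown 5 of 8 interferon genes were lower (summed level 58.2 to 75.3 CPM) and both epithelial markers tested were lower (38.5 to 70.8 CPM), while 2 of 6 fibroblast markers were higher and 2 lower (3200 to 3720 CPM). Of 7 smooth muscle markers tested, Smtn (0.60, adjusted p = 4.86e-05) was higher and Myocd (-1.32, adjusted p = 0.0127) lower. Myh11 was called higher too (3.74, adjusted p = 0.000764), but near the floor, at a mean of 0.0639 CPM in controls and 0.94 in knockdown. The summed level of the list was 241 to 332 CPM against 242 to 276 in controls. Of 3 endothelial markers, Vwf was higher (2.1, adjusted p = 0.0165), also near the floor, at a mean of 0.144 CPM in controls and 0.688 in knockdown. Egfl7 was lower (-1.91, adjusted p = 0.000291), and the summed level was 2.57 to 4.34 against 3.03 to 5.17 CPM. Of 2 macrophage and leukocyte markers 0 were called. Under angiotensin II the long knockdown had 4 of 8 interferon genes lower (58.7 to 80.4 against 74.1 to 108 CPM), both epithelial markers lower (36.4 to 65.1 against 101 to 128 CPM) and 1 fibroblast marker higher and 2 lower (3090 to 3750 against 3490 to 3920 CPM). The smooth muscle markers had 2 higher and 1 lower there (263 to 338 against 246 to 281 CPM), the endothelial ones 1 higher and 1 lower (3.11 to 4.59 against 3.92 to 4.71 CPM), and Cd14 was the 1 of 2 macrophage and leukocyte markers called (0.39, adjusted p = 0.03). The part of these lists in the values of Dusp4 and Dusp6 was not tested.

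In run 2, the libraries labelled total CASC15 knockdown had more Dusp4 than their antisense controls. Dusp4 had 16.3 and 12.2 CPM in the controls of P17 and P18, and 48.7 and 69.9 in the labelled knockdown. The groups were far apart, with a log2 fold change of 2.06 (adjusted p = 0.0404, SE 0.411, and 2.01, adjusted p = 0.00157 with the block). It was the 1 gene of 10 called, against 2.07% of all 15350 genes, or 1.5% in that direction. With 2 libraries a group, leaving out any of the 4 removed the call: the adjusted p was 0.204 and 0.304 without the first and second control library and 0.0687 and 0.324 without the first and second labelled knockdown library, at log2 changes of 1.77 to 2.29. A library left alone in its group is then taken to vary like the other groups of the run.

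With the block 4 of 10 genes were called in these libraries, all higher, against 14.4% of all genes, or 8.76% in that direction. Dusp6 had 4.90 and 6.96 CPM in controls and 6.87 and 18.5 in the labelled knockdown, higher inside both batches although the groups overlapped (1.1, adjusted p = 0.501, and 1.0, adjusted p = 0.0108 with the block, or 0.00592 with no filter on low counts). Without the second labelled knockdown library, at 18.5 CPM, the Dusp6 change was 0.21 (adjusted p = 1). Etv5 had 14.8 and 10.6 CPM in controls and 18.2 and 19.4 in the labelled knockdown, with no overlap (0.56, adjusted p = 0.242, and 0.56, adjusted p = 0.034 with the block). Spred1 had 103 and 97.5 CPM against 126 and 130, also with no overlap (0.35, adjusted p = 0.297, and 0.35, adjusted p = 0.0345 with the block). The other 6 genes were called in neither fit, with intervals as wide as -2.16 to 1.81 for Dusp1 and -1.52 to 1.32 for Spry4. All 10 mitosis genes were higher in these libraries with the block and 0 without it, and their summed level was 98.4 and 178 CPM against 35.8 and 57.1 in controls. Of 4 tested macrophage and leukocyte markers 2 were higher. Cd68 was at a mean of 0.43 CPM in controls and 15.8 in the labelled knockdown (5.19, adjusted p = 0.00576). Csf1r was at 0.141 and 2.89 CPM (4.3, adjusted p = 0.0262). The summed level over all 8 was 28.6 to 33.1 CPM, against 9.04 to 10.7 in controls, with Ptprc and Tyrobp at 0 in both groups. Myh11 was higher as well, at 0.989 ± 0.138 CPM in controls and 5.49 ± 1.67 (2.47, adjusted p = 0.0239), the 1 of 7 smooth muscle markers called (summed level 180 to 203 and 202 to 218 CPM). Des passed with the block alone (2.79, adjusted p = 0.0794 without it and 0.0046 with it). Of 8 fibroblast markers 2, Pdgfra and Lum, were lower with the block (3020 to 3110 and 2700 to 2860 CPM for the list), with 0 called without it. Endothelial (3.43 to 4.93 and 7.35 to 11.9 CPM) and epithelial markers (46.7 to 47.1 and 75.7 to 98.2 CPM) had 0 calls without the block, and 2 and 1 higher with it. The part of these lists in the Dusp4 value was not tested.

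**Figure D4:**
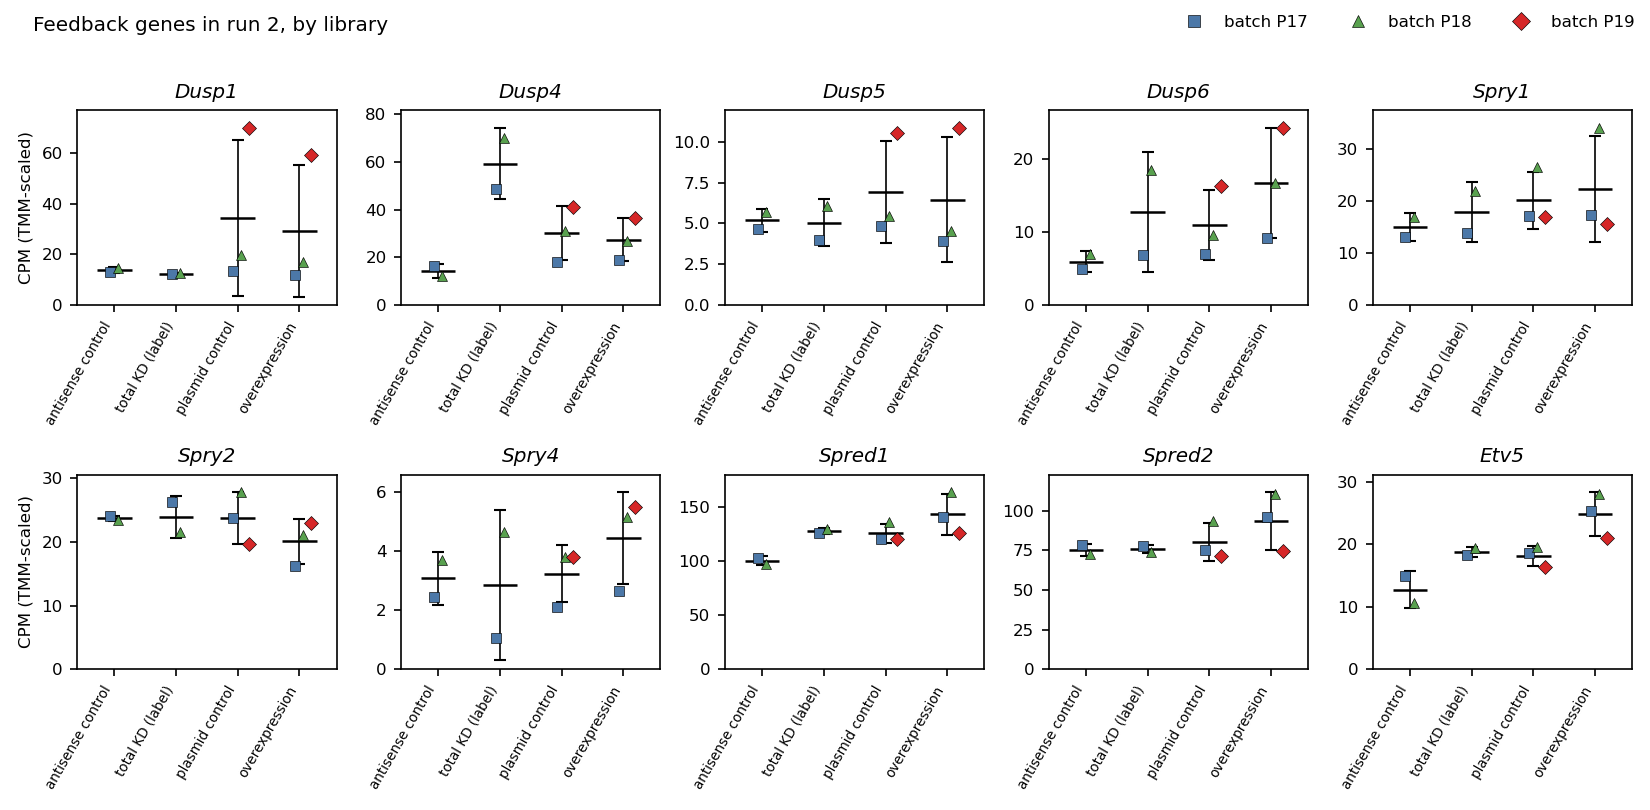
TMM-scaled CPM (y axis, from 0) of the 10 genes in the 10 libraries of run 2, by group (x axis), with 1 point per library coloured by batch, the mean as a bar and the SD as whiskers (n = 2 or 3). Dusp4 is highest in the libraries labelled total CASC15 knockdown, at 48.7 and 69.9, and Dusp1 in P19 of both plasmid groups, at 69.8 and 59.03.

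Dusp4 thus had opposite signs under the knockdowns labelled total and long, and the difference itself was tested in a fit of all 9 groups. It was 2.94 on the log2 scale for Dusp4 (adjusted p = 0.00802, SE 0.714, and 2.4e-07 with the block), 1 of 10 genes called against 13.2% of all 16881 genes in that fit, or 6.46% in that direction. The call was lost without the second control library of run 2 (2.75, adjusted p = 0.0706) or the second labelled knockdown library (2.67, adjusted p = 0.0533), and the value was 3.55 without P19 of the long knockdown (adjusted p = 0.00048). Dusp6 differed by 1.53, with an adjusted p of 0.156, or 0.00119 with the block (0.66, adjusted p = 0.7 without the second labelled knockdown library), and Spred1 by 0.38, with an adjusted p of 0.0664, or 0.0359 with the block. Without P19 both were called, at 1.8 (adjusted p = 0.00673) and 0.39 (adjusted p = 0.0143). The knockdowns were sequenced in different runs, each against its own controls. Dusp4 stood at 14.2 ± 2.87 CPM (n = 2) in the controls of run 2 and at 61.9 ± 18.5 (n = 4) in those of run 3, and the run and the kind of knockdown cannot be told apart.

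Overexpression of CASC15 gave no call among the 10 genes without a block. Etv5 had 18.5, 19.5 and 16.4 CPM with the control plasmid in P17, P18 and P19, and 25.3, 27.99 and 21.0 with the CASC15 plasmid. The groups did not overlap (0.45, SE 0.162, adjusted p = 0.229, and 0.45, adjusted p = 0.0311 with the block). Dusp6 had 7.03, 9.57 and 16.3 CPM with the control plasmid and 9.14, 16.7 and 24.3 with the CASC15 plasmid, higher in each batch while the groups overlapped (0.61, adjusted p = 0.592, and 0.58, adjusted p = 0.0372 with the block). edgeR called 0 of 10 genes against 1.65% of all genes, with 1 at an unadjusted p under 0.05 (15% of all genes). DESeq2 called 0, against 5.26% of all genes. With the block 2 of 10 were called, both higher, against 17.7% of all genes, or 9.4% in that direction. Dusp4, at 30.1 ± 11.4 and 27.4 ± 8.92 CPM (n = 3), was not called (-0.13, 95% interval -0.86 to 0.60). The mitosis list moved with overexpression too, with 10 of 10 genes higher with the block and 0 without it (summed level 74.8 to 426 CPM with the control plasmid and 139 to 610 with the CASC15 plasmid). The interferon list had 3 of 10 genes higher with the block and 0 without it (3170 to 6540 and 5240 to 6810 CPM). Cd14 was higher with no block (0.81, adjusted p = 0.0262), 1 of 4 macrophage and leukocyte markers tested (11.7 to 12.5 and 16.7 to 22.7 CPM for the list), and 2 were higher with the block. With the block 1 epithelial marker was higher (43.8 to 64.9 and 64.4 to 139 CPM), and 1 fibroblast marker was higher and 2 lower (2810 to 3920 and 2890 to 3890 CPM). The part of these lists in the values of Etv5 and Dusp6 was not tested.

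Dusp1 showed the widest gap between libraries of a group in run 2. It had 13.4, 19.7 and 69.8 CPM with the control plasmid and 11.8, 16.8 and 59.03 with the CASC15 plasmid, in P17, P18 and P19. P19 stood at 4.22 and 4.14 times the mean of the other libraries of these groups, with Dusp5 (10.5 and 10.9 CPM, against 3.94 to 5.45), Dusp6 (1.97 and 1.88 times), Dusp4 (1.66 and 1.61 times) and Spry4 (1.28 and 1.41 times) also highest there, and Etv5, Spred2 and Spry1 lowest. Other lists stood apart in the same P19 libraries. The summed mitosis list was at 426 CPM against 74.8 and 95 with the control plasmid and at 610 against 139 and 192 with the CASC15 plasmid, and the smooth muscle list at 525 against 199 and 254 and at 475 against 242 and 247. Their part in the Dusp1 value was not tested. In P19 of run 3 Dusp1 was not set apart in this way, at 0.872 to 1.37 times the mean of the other batches. The antisense groups of run 2 hold no P19 library.

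The control plasmid and the control GapmeR of run 2 differed in 0 of 10 genes in edgeR, against 1.18% of all genes. At an unadjusted p under 0.05 there were 3 (Dusp4, Spred1 and Etv5), against 9.41% of all genes. DESeq2 called 0, against 2.26%. Dusp4 was at 18.2, 31.0 and 40.9 CPM with the plasmid, above both antisense controls (1.07, adjusted p = 0.423). With no filter on low counts Dusp1 (1.3, adjusted p = 8.75e-08), Dusp4 (1.07, adjusted p = 3.02e-06) and Dusp6 (0.89, adjusted p = 0.0307) were called. The plasmid group alone holds a P19 library, and with the filter Dusp1 had 1.31 (adjusted p = 0.606), 0.25 without P19 (adjusted p = 0.903) and 0.24 with the block (adjusted p = 0.406). The interferon list was higher with the plasmid in 8 of 10 genes, with a summed level of 3170 to 6540 CPM against 65.3 to 91.9. The mitosis list was higher in 7 of 10 genes with the block and 0 without it, at a summed 74.8 to 426 CPM against 35.8 and 57.1. The part of both lists in these values was not tested.

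Other genes of the pathway were read from lists fixed by name. Of 13 tested ERK output transcripts, 11 were higher with PDGF-BB and 0 lower (12 and 0 with the block), against 43.6% of all genes called in either direction, with a median log2 fold change of 1.15 against -0.02 for all genes. Fosl1, a subunit of AP-1, went from 0.487 ± 0.188 to 4.98 ± 1.97 CPM (3.32, adjusted p = 3.77e-05). Etv4, like Etv5 a member of the PEA3 group, went from 8.64 ± 1.28 to 48.2 ± 2.79 CPM (2.48, adjusted p = 2.17e-06), while Etv1, the remaining member of that group, did not pass the filter on low counts. Egr1, an immediate early zinc finger factor, went from 34.8 ± 8.53 to 176 ± 14.9 CPM (2.34, adjusted p = 8.28e-07). Ccnd1, which encodes cyclin D1, was at 390 ± 153 and 959 ± 219 CPM (1.3, adjusted p = 0.0577, and 0.000226 with the block).

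Among the 21 kinases and adaptors of the cascade, 6 were higher and 3 lower with PDGF-BB, with a median log2 fold change of 0.08. This count of 9 of 21 is near the 43.6% of all genes called. Hras (0.72, adjusted p = 0.00125), which encodes a RAS protein, rose, and Gab1 (-0.61, adjusted p = 1.78e-08), a docking protein of receptors, fell. Mapk3, which encodes ERK1, rose (0.23, adjusted p = 0.00815).

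The further lists are likewise read against the 43.6% of all genes called with PDGF-BB (54.5% with the block), and 4 of 11 other feedback inhibitors and 4 of 8 other ETS factors are near it. Of 8 other MAP kinase phosphatases tested 1 was called, Dusp7, which rose (0.66, from 16.4 ± 0.443 to 25.9 ± 2.77 CPM), and 2 with the block. Of 11 other feedback inhibitors of receptor signalling 3 rose, among them Errfi1, an inhibitor of the EGF receptor (0.47, adjusted p = 0.000575), and Lrig1, which encodes a membrane protein that restrains receptor tyrosine kinases (0.42, adjusted p = 0.0324). Il17rd, also called Sef, fell (-0.62, adjusted p = 0.0193). The block raised these counts to 4 higher and 2 lower. Of 8 other ETS factors 3 rose and 1 fell, with Elk4 at 0.46, the repressor gene Erf at 0.39 and Ets2 at -0.41.

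**Figure D5:**
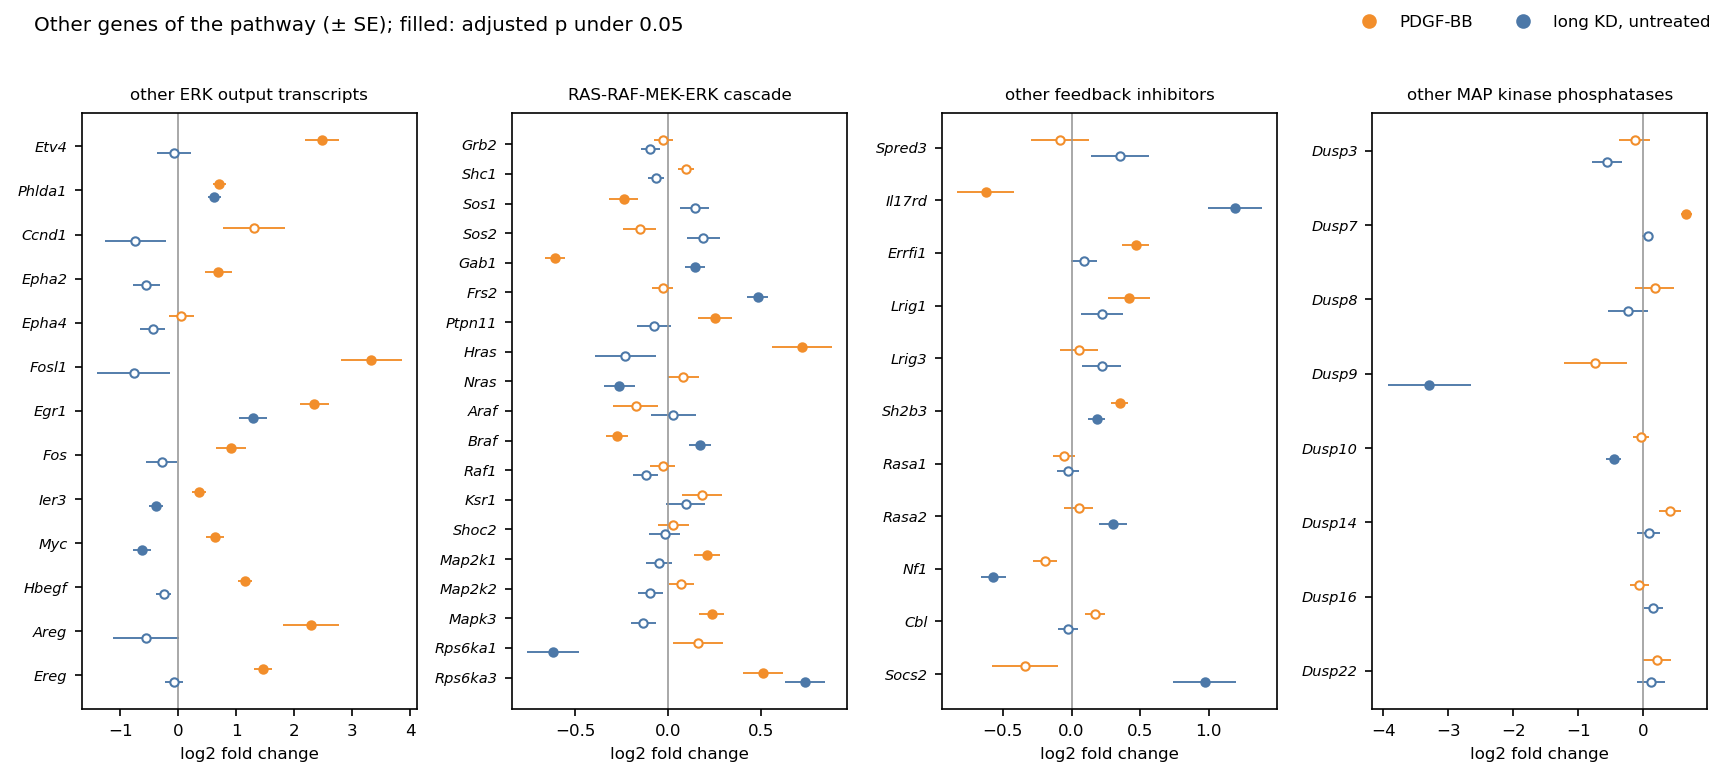
Log2 fold change (x axis, ± SE) of the other pathway genes (y axis, 4 lists, with some cascade genes not drawn) with PDGF-BB in control cells and with long CASC15 knockdown in untreated cells, filled where the adjusted p was under 0.05 with no block. With PDGF-BB 11 of 13 ERK output transcripts are filled to the right, whereas with long knockdown 2 are filled to the right and 2 to the left.

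The lists under long knockdown are read against 25% of all genes called in untreated cells (40.6% with the block) and 26.7% under angiotensin II (41.3% with the block). In untreated cells, 2 of the 13 ERK output transcripts were higher and 2 lower (2 and 6 with the block). Egr1 rose from 34.8 ± 8.53 to 85.0 ± 23.7 CPM (1.29, adjusted p = 0.000791) and Phlda1 rose (0.62, adjusted p = 0.000365), while Myc fell (-0.63, adjusted p = 0.00609). Etv4 was at 8.21 ± 3.63 CPM (-0.08, adjusted p = 0.873). Of the 21 cascade genes 4 were higher and 3 lower (4 and 6 with the block), with Rps6ka3 (0.73, adjusted p = 4.67e-05), a kinase that ERK activates, and the adaptor gene Frs2 (0.48) higher, and Rps6ka1 (-0.62) lower.

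Of the 11 other feedback inhibitors 4 were higher and 1 lower in long knockdown. Il17rd rose from 4.61 ± 0.657 to 10.6 ± 2.699 CPM (1.19, adjusted p = 0.000148) and Socs2, a suppressor of cytokine signalling, rose (0.97, adjusted p = 0.00381), and Nf1, which encodes neurofibromin, fell (-0.57, adjusted p = 8.49e-05). Of the 8 other MAP kinase phosphatases 2 were lower and 0 higher (3 and 1 with the block), which with no block is the share of all genes, among them Dusp10 (-0.45, adjusted p = 0.00812), a phosphatase of p38 and JNK. Of the 8 other ETS factors 2 were higher and 3 lower (3 and 3 with the block). Under angiotensin II the counts higher and lower were 2 and 2 for ERK outputs, 4 and 3 for the cascade, 2 and 1 for other feedback inhibitors, 0 and 3 for other phosphatases and 3 and 2 for ETS factors. With the block they were, in the same order, 2 and 5, 5 and 6, 4 and 1, 1 and 3, and 3 and 2. In the libraries labelled total CASC15 knockdown, Fosl1 was the 1 of 12 tested ERK output transcripts that was called (2.51, adjusted p = 0.0436), and 0 genes of the other 4 lists were called by edgeR with no block. With the block 5 ERK outputs were higher and 1 lower, 3 other feedback inhibitors were lower and 1 ETS factor was higher, against 14.4% of all genes. With overexpression only Lrig1 was called in these 5 lists (1.16, adjusted p = 0.00138), and with the block 5 ERK outputs were higher and 2 lower, 2 cascade genes higher and 1 lower, 1 other phosphatase higher, 1 other feedback inhibitor higher and 1 lower and 0 ETS factors called, against 17.7% of all genes.

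The genes whose pattern over the 20 libraries of run 3 was nearest to that of Dusp6, by the root mean square difference of centred log2 CPM among 10134 genes, were Sc5d (0.138), Dbi (0.168), Tnfrsf23 (0.171), Insig1 (0.173) and Acsl3 (0.182). For scale, the centred log2 CPM of Dusp6 had an SD of 0.82. Nearest to Spry4 were Dnajc9 (0.232), Ddias (0.271), Psat1 (0.273), Etv5 (0.274) and Prim2 (0.287), so that 1 of the 5 was another of the 10 genes. These distances are a description over libraries that share batches and treatments.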

How the data were processed

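RNA was sequenced as paired reads of 75 bp. Per the submitters' processing notes, reads were processed with STAR 2.7.11b and RSEM 1.3.1, and the notes name both GRCm39 and mm10, so no gene coordinates are given from the table. The authors deposited RSEM expected counts, with no depth scaling. Reads shared by similar genes are divided among them by RSEM. Identifiers were matched to GENCODE symbols without their version (51486 of 78334). The target gene, 2610307P16Rik, was read as mouse CASC15 from its place beside Sox4. Some titles number CASC15 upward, and groups were taken from the library names.

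Expected counts were rounded. Genes were kept by filterByExpr of edgeR (minimum count 10, total 15), which left 15350 in run 2 and 15103 in run 3. Each run was fitted alone with edgeR's quasi-likelihood model (edgeR 4.0.16, limma 3.58.1, R 4.3.3), with TMM factors and a coefficient per group, and the threshold for a call was 0.05 on the two-sided p after Benjamini-Hochberg adjustment. SEs and 95% intervals are on the log2 scale. The common biological coefficient of variation was 0.232 and 0.148. The scripts were tested on simulated data. The replicate numbers run with the batch labels, so they pair the libraries: after removal of group means, same-batch libraries of different groups correlated at a mean of 0.23 in run 2 and 0.197 in run 3, other pairs at -0.121 and -0.0606. No 2 libraries of a group were within counting noise of each other.

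Alternatives were the batch as a replicate block, DESeq2 1.42.0, its size factors, no filter, a mean CPM of at least 1, a fit of the compared groups only and leaving out each library. Leaving out P19 and the difference between knockdowns were added after the data were seen. The 10 genes and all lists were chosen with earlier results of these data known. All 10 are named. From each list the text may name the 3 called genes with the largest change and a mean CPM of at least 1, plus Etv4, Etv1, Ccnd1, Egr1, Fosl1, Mapk3 and Mki67. Some cell type markers are named outside this rule. Some genes of the fixed lists are counted but not reported here by name. The 5 nearest genes to Dusp6 and Spry4 had a mean CPM of at least 5. Exon lengths are from GENCODE, with all annotated exons of a gene merged.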

Additional observations from a re-analysis of the deposited data

Results flagged for a closer look

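A library stood apart from the other 3 of its group, by the gap to its nearest neighbour over the range of the group, in 10 of the 50 tests over the 10 genes and the 5 groups of run 3. Chance flags about 1 in 20, but the 50 tests are not independent, since the groups share their batches and 5 of the flags are of Dusp4. Over all genes tested in run 3 the same measure set a library apart in 8.16% of gene and group pairs, and P19 in 5.57%. The library was P19 each time. Dusp4 in P19 was at 89.59 CPM in untreated controls (others 51.49 to 53.61), 95.45 with angiotensin II (47.6 to 54.94), 149 with PDGF-BB (78.78 to 85.09), 67.45 in untreated long knockdown (21.48 to 22.67) and 61.93 in long knockdown with angiotensin II (22.12 to 25). Dusp6 in P19 was at 35.28 CPM in untreated controls (20.24 to 22.15) and 33.59 in untreated long knockdown (12.63 to 13.83). Etv5 was at 21.47 in long knockdown with angiotensin II (11.48 to 11.71) and Spry4 at 14.76 with PDGF-BB (7.754 to 8.918). Spry1 was low in P19 with PDGF-BB, at 21.07 (28.19 to 29.45).

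The effect of knockdown on Dusp4 differed between the libraries labelled total and those labelled long by 2.936 on the log2 scale (adjusted p = 0.00802, edgeR, all 9 groups in 1 fit), higher in both batches of the former and lower in all 4 batches of the latter. The run differs along with the knockdown.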

How the results depend on the processing

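With the batch as a replicate block, the number of the 10 genes called was 6 under long knockdown in untreated cells (1 without it, while the share of all genes went from 25% to 40.6%), 5 under angiotensin II (1 without it, 26.7% to 41.3%), 4 in the libraries labelled total knockdown (1 without it, 2.07% to 14.4%) and 2 with overexpression (0 without it, 1.65% to 17.7%). Beyond the changes given beside each result, the block changed no other call among the 10 genes. With no filter on low counts the numbers were 0 and 0 under long knockdown (untreated and angiotensin II, where 9.34% and 9.8% of all genes were called), 2 in the labelled total knockdown (4.44%) and 3 for control plasmid against control GapmeR (3.7%). Without batch P19 they were 4 and 5 under long knockdown (40% and 39.9% of all genes). Leaving out single libraries gave 7 to 7 with PDGF-BB (36.5% to 43.1% of all genes) and 6 to 7 for PDGF-BB against angiotensin II (35.7% to 42.7%). Under long knockdown it gave 0 to 3 untreated (18.8% to 31.7%) and 0 to 3 under angiotensin II (19.8% to 31.9%). With overexpression it gave 0 to 0 (0.561% to 5.69%) and for angiotensin II 0 to 0 (0%). For the plasmid control it gave 0 in each fit without a plasmid library (0.894% to 1.81%). In the labelled total knockdown such a fit leaves 1 library in a group, so no count is given here. The causes of these changes were not tested. No called value changed sign under any alternative run. Besides those named above, leaving out P19 of 1 group added Spry4 (control left out, 0.89, adjusted p = 0.0324) and Dusp6 (knockdown left out, -0.91, adjusted p = 0.0451) in untreated cells, and Dusp4 (-1.45, adjusted p = 0.0161) and Spry2 (0.20, adjusted p = 0.0439, knockdown left out) and Dusp1 (0.43, adjusted p = 0.00968, control left out) under angiotensin II, where Spry2 was also called without replicate 3 of the controls (0.23, adjusted p = 0.0193). Spry4 and Dusp5 had counts as low as 21 and 27 in a library, and 2 or 3 libraries a group limit run 2.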
